A study of Mus musculus with 289 samples.

Results

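The S100 genes encode small calcium-binding proteins, and 8 of them were described here in single epidermal cells: S100a4, S100a6, S100a8, S100a9, S100a10, S100a11, S100a14 and S100a16. They were chosen by symbol, and all 8 were present among the 15019 genes of the table. S100a8 and S100a9, the calprotectin pair linked to wounding, were kept apart from the 6 constitutive members. Each library was 1 cell sorted from mouse tail skin, and the cells lay on 4 plates, 2 of vehicle and 2 of PRT4165, which were the replicates.

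All mice were female and carried Lrig1-EGFP-ires-CreERT2 and Rosa26-fl/STOP/fl-tdTomato on a CBA C57BL/6 mixed background. In them Lrig1, a gene of upper hair follicle stem cells, drives a Cre that hydroxytamoxifen activates, so a single application to the tail skin of young adult animals left a heritable tomato label in Lrig1-expressing cells and their progeny. The skin then received either the vehicle, acetone, or PRT4165, which blocks the E3 ligases (Ring1A and Ring1B) that place ubiquitin on histone H2A for Polycomb repressive complex 1, and tomato-positive keratinocytes were sorted hours after the last of several applications, without a wound (time label t0). The vehicle plates were labelled AC and were taken as vehicle because the labels name no other control. The number of mice behind a plate is not stated in the labels, and since a plate carried cells of 1 treatment, effects of plate and drug cannot be told apart in either replicate.

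After filtering, 274 of 289 cells remained, with 70 and 55 cells on vehicle replicates 1 and 2 and 72 and 77 cells on PRT4165 replicates 1 and 2. The kept cells of a plate summed to between 25761756 and 41592716 estimated counts. Cells of vehicle replicate 1 were shallower, with a median of 141985 counts against 429383 to 538754 on the other plates. Krt14, a keratin of basal keratinocytes, was counted in 255 of the 274 cells. The markers of neutrophils, cells that carry much calprotectin, were near 0: 4 of the 11 listed had a row in the table, none of these was at 0 in all cells, and they summed to between 0.62 and 2.21 CPM (counts per 1000000 of all counts of the plate's kept cells). Of the other lists, 5 Langerhans cell and macrophage markers summed to between 1.61 and 4.23 CPM and 3 T cell markers to between 1.22 and 5.61 CPM. Higher sums were found for 4 melanocyte markers, from 6.19 to 35.3 CPM, and 5 fibroblast markers, from 7.28 to 84.3 CPM, the highest on PRT4165 replicate 1.

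S100 proteins form dimers with a pair of EF-hand calcium sites in each chain, and calcium opens a surface that binds partner proteins. S100a10 is the exception that does not bind calcium and instead joins annexin A2 in a complex at the cell membrane. S100a8 and S100a9 pair with each other as calprotectin, a metal-chelating antimicrobial protein abundant in neutrophils and induced in keratinocytes of wounded or inflamed skin. S100a4 is known from motile and mesenchymal cells, S100a6 binds calcyclin-binding protein (Cacybp), S100a11 is a partner of annexin A1, and S100a14 and S100a16 are epithelial members.

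All 8 genes lie on mouse chromosome 3, where the S100 family flanks the epidermal differentiation genes (GRCm38, GENCODE vM21). S100a14 (chr3:90526856-90528837), S100a16 (chr3:90537254-90543151), S100a4 (chr3:90603771-90606045), S100a6 (chr3:90612882-90624181) and S100a8 (chr3:90668978-90670035) are on the plus strand. S100a9 (chr3:90692632-90695721) is on the minus strand, 22.6 kb beyond S100a8. A second group, S100a11 (chr3:93520488-93526287) and S100a10 (chr3:93555080-93564643), starts 2825 kb further on, with 28.79 kb between them, both on the plus strand. S100a4 shares 2115 bases with the predicted gene Gm42674 on the same strand, which also has a row in the table, so how the counting split reads between them is uncertain.

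The promoter sequences of 4 members are printed because the results turn on them: S100a8 and S100a9 as the calprotectin pair, and S100a6 and S100a11 as the most abundant members, whose levels followed different genes across cells. They come from RefSeq (GRCm38.p6), which gave a promoter for 6 of the 8 members, and run from 250 bases before to 50 bases after the annotated start, in the gene's direction. Capitals mark matches on either strand to TATAAA (a box found near many starts), TGANTCA (an AP-1 motif) or TTGCNNAA (a C/EBP motif).
S100a8 (chr3:90668821-90669120, plus strand): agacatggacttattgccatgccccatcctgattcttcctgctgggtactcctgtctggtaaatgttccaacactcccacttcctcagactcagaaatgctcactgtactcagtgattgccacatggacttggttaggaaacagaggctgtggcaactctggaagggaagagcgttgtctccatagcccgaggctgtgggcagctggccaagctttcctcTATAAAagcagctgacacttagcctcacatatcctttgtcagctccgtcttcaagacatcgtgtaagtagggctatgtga
S100a9 (chr3:90695672-90695971, minus strand): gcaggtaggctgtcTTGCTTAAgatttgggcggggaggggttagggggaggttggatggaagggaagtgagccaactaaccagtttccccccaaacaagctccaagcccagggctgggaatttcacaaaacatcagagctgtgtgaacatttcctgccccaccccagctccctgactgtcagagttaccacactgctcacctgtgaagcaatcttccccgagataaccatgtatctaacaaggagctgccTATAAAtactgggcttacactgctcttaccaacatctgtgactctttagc
S100a6 (chr3:90612644-90612943, plus strand): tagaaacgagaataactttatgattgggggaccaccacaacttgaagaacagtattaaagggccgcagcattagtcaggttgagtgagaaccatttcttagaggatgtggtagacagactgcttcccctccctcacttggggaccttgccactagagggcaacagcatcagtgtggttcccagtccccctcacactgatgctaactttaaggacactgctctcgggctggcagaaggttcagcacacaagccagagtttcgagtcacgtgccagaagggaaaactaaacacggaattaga
S100a11 (chr3:93520246-93520545, plus strand): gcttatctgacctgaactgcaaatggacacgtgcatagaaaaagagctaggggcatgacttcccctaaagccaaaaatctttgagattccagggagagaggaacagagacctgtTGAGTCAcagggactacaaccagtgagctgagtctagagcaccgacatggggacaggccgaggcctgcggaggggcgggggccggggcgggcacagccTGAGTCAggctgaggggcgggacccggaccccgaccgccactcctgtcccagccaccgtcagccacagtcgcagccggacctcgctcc

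S100a8 and S100a9 each held 1 TATAAA, a match found in 13.62% of the 32851 promoters of the table. The constitutive member S100a4, whose window is not printed, also held 1, beginning 31 bases before its annotated start. The S100a8 match began 30 bases before the annotated start, and the S100a9 match at the start itself. These starts are those of RefSeq, and the GENCODE span of S100a8 given above, from chr3:90668978, begins before its RefSeq start. S100a9 also held 1 TTGCNNAA match, which 10.8% of promoters have. S100a11 held 2 TGANTCA matches, against 1 or more in 7.81% of promoters, and these letters were not found in the windows of S100a8, S100a9 or S100a6. The matches do not overlap each other, and they describe the sequence alone.

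Among the constitutive members, S100a6 stood highest and S100a4 far below the rest. Levels were compared between genes on a per-length scale (counts divided by the median length of the gene's annotated transcripts and set to parts per 1000000 of the plate). S100a6 was at 1231 and 2175 on vehicle replicates 1 and 2, and at 1158 and 1608 on PRT4165 replicates 1 and 2. S100a11 followed at 819 and 1134 in vehicle and 776 and 1306 with PRT4165, and S100a10 at 619.8 and 774 in vehicle and 1002 and 800.3 with PRT4165. The next members were S100a16, from 207.8 to 419.98 over the 4 plates, and S100a14, from 131.7 to 252. S100a4 ranged from 24.7 to 48.8.

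S100a6 exceeded S100a11 on all 4 plates, by 1.23 to 1.92 times, although their ranges overlapped. S100a11 exceeded S100a10 on 3 of 4 plates, so these neighbours in the order did not differ beyond their spread. S100a10 was above S100a16 on every plate, by 1.84 to 4.82 times, with no overlap of the ranges. S100a16 was above S100a14 on every plate, by 1.58 to 2.07 times.

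**Figure D1:**
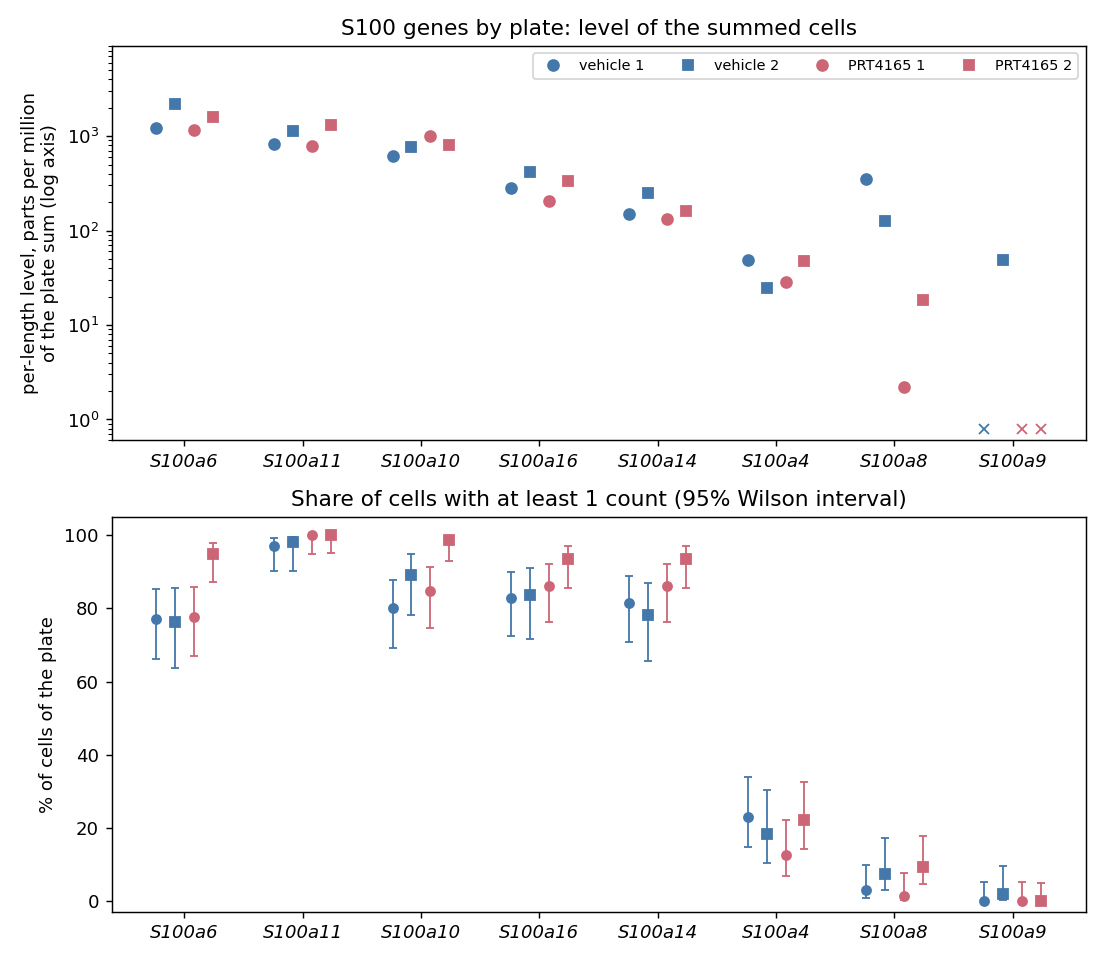
Upper panel, the per-length level of each gene on each plate in parts per 1000000 on a log axis, with crosses for values listed at 0. Lower panel, the percent of cells of the plate with at least 1 count, with 95% Wilson intervals. Blue is vehicle, red PRT4165, circles replicate 1 and squares replicate 2. S100a6, S100a11 and S100a10 lie highest on every plate, and S100a8 and S100a9 are found in few cells.

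By the share of cells with at least 1 count, 5 members were widespread, and S100a6, first by level, was the lowest of these 5. S100a11 was counted in 271 of 274 cells (98.9%), S100a10 in 242, S100a16 in 238, S100a14 in 234 and S100a6 in 225 (82.1%). S100a4 was counted in 52 cells (19.0%), S100a8 in 14 and S100a9 in 1. Of the 5 widespread members, 58.8% of cells had all and 1 cell had none. S100a6 varied most from cell to cell among these 5 within the vehicle plates: its standard deviation of log2(CPM + 1) over cells was 4.63 on both, against 2.17 and 2.06 for S100a11. A cell of the lower quartile held 25.9 and 41.2 CPM of S100a6 on the vehicle plates, and one of the upper quartile 2427 and 2010.5 CPM.

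**Figure D2:**
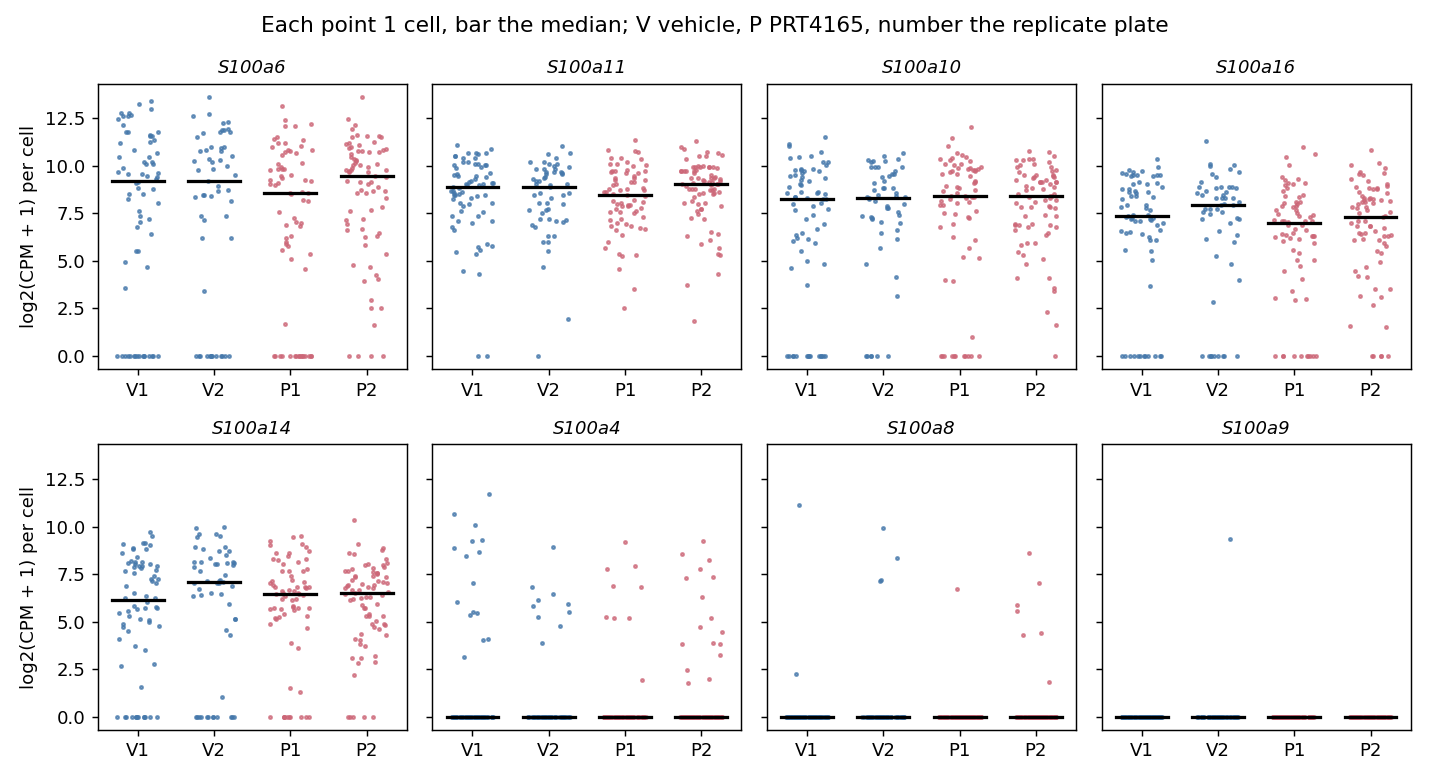
Each panel shows 1 gene, each point 1 cell as log2(CPM + 1), and each bar the median of the plate. V is vehicle and P is PRT4165, with the replicate number. S100a11 is above 0 in nearly all cells, S100a6 spreads over the whole scale, and S100a4, S100a8 and S100a9 have medians of 0.

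PRT4165 was compared with vehicle to ask whether blocking Polycomb repressive complex 1 alters the S100 genes in unwounded Lrig1 progeny, and no constitutive member passed the test. Summed counts per plate were tested with edgeR's quasi-likelihood test over 12791 genes, of which 0 (0%) had an adjusted p under 0.05 and 630 (4.93%) an unadjusted p under 0.05. DESeq2 called 1.37% of the genes it adjusted. The plates of the treatments did not overlap for 32% of all genes tested. Of the members, 7 could be tested, since S100a9 did not pass the filter on low counts. Beside that 32%, 2 of the 7 members had plates that did not overlap, S100a10 and S100a8. Of these 7, 3 members had a log2 fold change above 0, and the median over the 7 was -0.18, beside -0.02 over all genes tested.

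S100a6 was at 665 and 1128 CPM in vehicle and 618 and 888 CPM with PRT4165, so the groups overlapped. Its log2 fold change was -0.18 ± 0.45 (SE), with an adjusted p of 0.997. S100a10 had 326 and 391 CPM in vehicle and 520.2 and 429.9 CPM with PRT4165, the only constitutive member whose groups stood apart. The difference was 0.44 ± 0.43 on the log2 scale, about as large as its error (edgeR adjusted p = 0.997).

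S100a11 was at 379 and 503 CPM in vehicle and at 354 and 617 CPM with PRT4165, with both vehicle plates inside the range of the PRT4165 plates (log2 fold change 0.20 ± 0.48). S100a14 gave 123 and 199.8 CPM against 107.7 and 135.8 CPM, and S100a16 gave 227.8 and 329.03 CPM against 167.6 and 277 CPM. Their log2 fold changes were -0.34 ± 0.50 and -0.26 ± 0.50. S100a4, which binds non-muscle myosin, was at 22.0 and 10.7 CPM against 12.7 and 22.2 CPM, with overlapping groups, and 52.6% and 55.7% of its counts on vehicle replicate 1 and PRT4165 replicate 1 came from 1 cell.

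The share of cells with a count of S100a6 was 77.1% and 76.4% in vehicle and 77.8% and 94.8% with PRT4165. PRT4165 replicate 2 stood apart from the other 3 plates, and the same plate held the most cells with all 5 widespread members, 83.1% against 45.7% to 54.2% elsewhere. After thinning to 50000 non-mitochondrial counts a cell, which left out 11 and 1 vehicle cells and 11 and 5 PRT4165 cells, these shares were 65.3% on that plate and 42.6% to 49.2% elsewhere. The PRT4165 mean exceeded the vehicle mean by 22.1 percentage points before and 13.9 after thinning. Permuting the plates in full (exact test, two-sided) gave p = 0.333 for both, the smallest p that 2 plates against 2 allow. For S100a14 the shares were 81.4% and 78.2% in vehicle and 86.1% and 93.5% with PRT4165, and for S100a16 82.9% and 83.6% against 86.1% and 93.5%, also at the smallest possible p of this exact test. After thinning, the S100a14 shares were 83.1% and 75.9% against 83.6% and 93.1%. They did not overlap, but on replicate 1 they barely differed, with 49 of 59 vehicle and 51 of 61 PRT4165 cells. The S100a16 shares overlapped after thinning, at 86.4% and 83.3% against 88.5% and 84.7%. The S100a16 difference went from 6.56 to 1.74 percentage points. Both PRT4165 plates also had more genes detected per cell (median 3613.5 and 3903) than the vehicle plates (3084.5 and 3352). How often the shares of all genes stood apart was not computed. With a stricter cell filter (at least 2000 genes and at most 25% mitochondrial counts) the difference for S100a14 became -0.65 and that for S100a16 -0.80 percentage points.

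S100a8 was the member with the largest difference between treatments, lower with PRT4165 but not past the adjusted threshold in edgeR. The plates held 155.3 and 53.0 CPM in vehicle and 0.96 and 8.34 CPM with PRT4165, so both treated plates lay below both vehicle plates. The log2 fold change was -4.48 ± 1.17, with an unadjusted p of 0.0048 and an adjusted p of 0.862 by edgeR. DESeq2 gave -4.51 with an adjusted p of 0.00213, and over all alternatives the adjusted p ran from that value to 0.9999. With the replicate number as a block, that is with plates paired by replicate, the value was -4.92 with an adjusted p of 0.999.

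These sums rested on very few cells. On vehicle replicate 1, 1 cell with 3999 counts gave 99.95% of the S100a8 counts of its plate, and the only other positive cell had 2. On vehicle replicate 2 the 4 positive cells had between 70 and 1143 counts. On PRT4165 replicate 1, 1 cell had 37 counts. On PRT4165 replicate 2 the 7 positive cells had between 1 and 118 counts. The 2 cells with the most S100a8, both vehicle, held 82.6% of all its counts. Without the cell of most S100a8 counts on each plate, an alternative chosen after seeing the data, the log2 fold change was -1.69 ± 2.37 with an adjusted p of 0.999.

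The share of cells with a count of S100a8 did not follow its summed level. It was 2.86% (95% Wilson interval 0.79 to 9.83%) and 7.27% (2.86 to 17.3%) on the vehicle plates, and 1.39% (0.25 to 7.46%) and 9.09% (4.47 to 17.6%) on the PRT4165 plates. The groups overlapped, and the PRT4165 mean minus the vehicle mean was 0.17 percentage points (exact two-sided permutation p = 1). After thinning the shares were 3.39% and 7.41% against 1.64% and 5.56%, with a difference of -1.80 percentage points. The positive cells themselves overlapped between treatments: the vehicle cells held 2221 and 3.81 CPM on replicate 1 and 139.6 to 989 CPM on replicate 2, and the PRT4165 cells held 106 CPM on replicate 1 and 2.58 to 395 CPM on replicate 2. No test was made of these, since the cells of a plate are not replicates.

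S100a9 was counted in 1 cell, on vehicle replicate 2, with 754 counts, and this was the cell with 1143 counts of S100a8. The other 13 cells with S100a8 had no S100a9 count. None of the PRT4165 cells had a count, which allows shares of up to 4.17% on replicate 1 and 3.90% on replicate 2 (3 divided by the number of cells). No difference between treatments was therefore detectable at this number of cells.

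The 14 cells with S100a8 were of several kinds, a division made after their values were seen. Clustering on variable genes that excluded the S100 members placed 6 of them in cluster G, 5 in cluster A, 2 in cluster E and 1 in cluster B. The 2 cells of cluster E had the most S100a8, 2221 and 989 CPM, and both were vehicle cells. They also held the wound keratins Krt6a (3806 and 1991 CPM) and Krt16 (1272 and 872 CPM) and the cornified envelope precursor Sprr1a (87946 and 12472 CPM). Over all 14 cells with S100a8, Krt6a was counted in 4, against 116 of all 274 cells (42.3%). Krt16 was counted in 4 of the 14 and in 72 of all (26.3%), and Krt17 in 9 and in 221 of all (80.7%). Sprr1a was counted in 6 of the 14 and in 87 of all (31.8%). Outside cluster E, S100a8 ranged from 2.58 to 395 CPM.

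The 5 cells of cluster A had high Krt10, a keratin of differentiating interfollicular epidermis, between 10634 and 32612 CPM, and held 2.58 to 319.7 CPM of S100a8. The 6 cells of cluster G had Scd1, a fatty acid desaturase of sebocytes, between 526.5 and 10060.5 CPM, and no count of Krt1. Lcn2, which encodes the antimicrobial protein lipocalin 2, was counted in 7 of the 14 cells and in 29 of all 274 cells (10.6%). Every one of the 14 cells held Krt14, S100a10, S100a11, S100a14 and S100a16. The neutrophil markers measured summed to at most 6 counts in any of them. Csf3r was at 0 in all 14, while Cxcr2 was counted in 4 of them and in 43 of all 274 cells, Camp in 2 and in 4 of all, and Mpo in 1 and in 7 of all. Markers of other leukocytes (Ptprc, Csf1r, H2-Aa and Cd3g) summed to 40 counts in 1 cell of cluster A on PRT4165 replicate 2, to 2 counts in the cell with S100a9, and to 0 in the other 12. The part of such cells in the S100a8 counts was not tested.

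**Figure D3:**
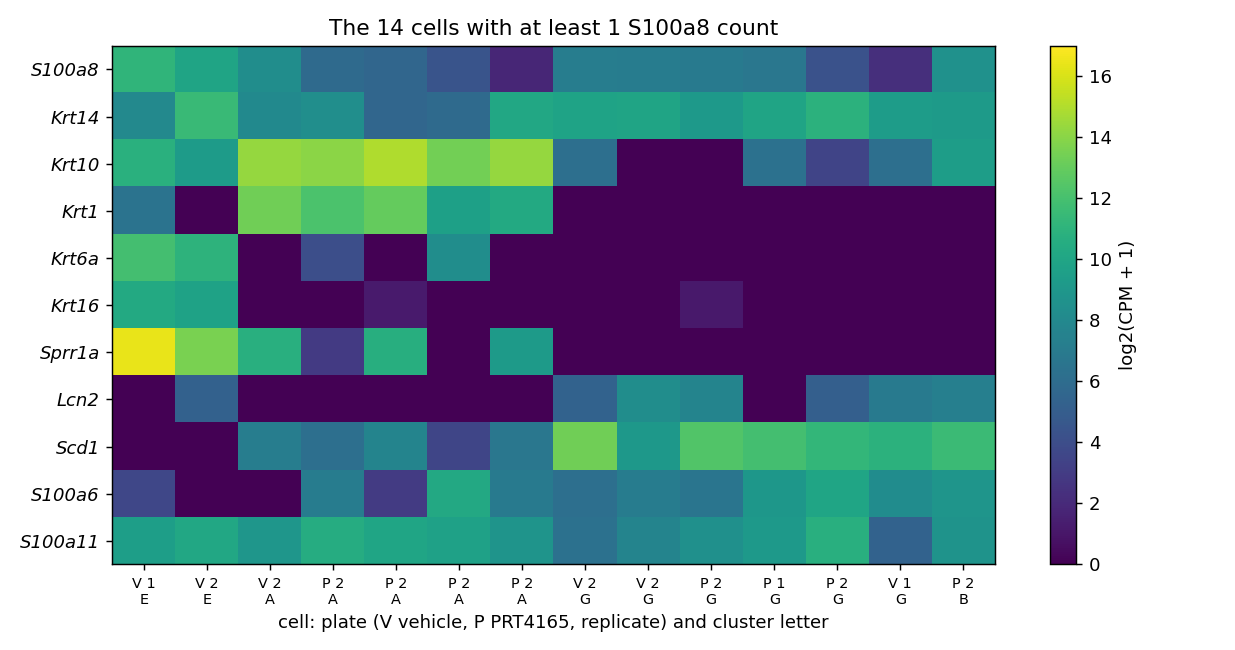
Rows are genes and columns the 14 cells with S100a8, ordered by cluster, coloured by log2(CPM + 1). Letters under the columns give the plate (V vehicle, P PRT4165) and the cluster. The 2 cells of cluster E hold Krt6a, Krt16 and Sprr1a, the 5 of cluster A hold the most Krt10 and Krt1, and those of cluster G and the 1 of cluster B hold the most Scd1.

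Across clusters, the constitutive members did not share 1 order of levels. The 7 clusters, lettered by size, held 66 to 23 cells. Cluster A was differentiated interfollicular-like (Krt1, Krt10, Krtdap, Calm4 and Skint5 raised), C bulge-like (Cd34, Krt15, Lhx2, Ccn2, Postn and Lgr5), F cycling-like (8 of 8 cycling markers, with the fibroblast markers Col1a1, Col1a2, Dcn and Lum, the melanocyte markers Dct and Pmel, and Lhx2 and Lgr5 also raised) and G sebaceous gland-like (8 of 8 markers, with Scd1 and Far2 among its 10 leading genes). Krt79 and Defb6 of the upper hair follicle list were also raised in A, and Itgb4, Col17a1, Flg2 and Cxcr2 in C. B, D and E were not named. B was led by Stra6 and Ccl27a, and D by Pi15 and Wfdc3. Raised in D were the basal markers Krt5, Itgb4 and Trp63, the bulge markers Krt15, Ccn2 and Sox9, and Sbsn and Krt17. E was led by Klk10, Sprr4 and Asprv1, with Gata6 and Krt79 of the upper hair follicle and Lor and Flg2 of the differentiated list raised. Levels by cluster were taken as a description, and the values are means of log2(CPM + 1) over cells.

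S100a6 was highest in clusters D (10.96), C (10.09) and B (9.98) and lowest in E (2.33) and A (4.62). Plate means (of plates with at least 5 cells) ran from 9.54 to 11.8 in D and from 1.15 to 2.76 in E, so these plate means did not overlap. S100a10 was likewise lowest in E (2.13), where 40% of the cells had a count, against 8.83 in B, 8.31 in D and 8.28 in G. Its plate means ran from 0 to 3.05 in E and from 8.20 to 9.12 in B. S100a4 was highest in the bulge-like cluster C (2.85), where 35.3% of the cells had a count, against 4% in E.

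S100a14 showed the opposite order, with 7.43 in the differentiated interfollicular-like cluster A and 2.42 in C. It was counted in 100% of the cells of A and in 43.1% of those of C, and in 100% and 44.7% after thinning. Its plate means ran from 7.12 to 8.14 in A and from 1.76 to 2.97 in C. S100a16 was also lowest in C (4.57) and was 7.73 in A and 7.65 in E. S100a11 varied least, between 6.87 in E and 9.30 in D. Median depth differed between clusters, from 171493 counts in C to 667689 in E, and its part in these levels was not tested beyond the thinned shares.

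**Figure D4:**
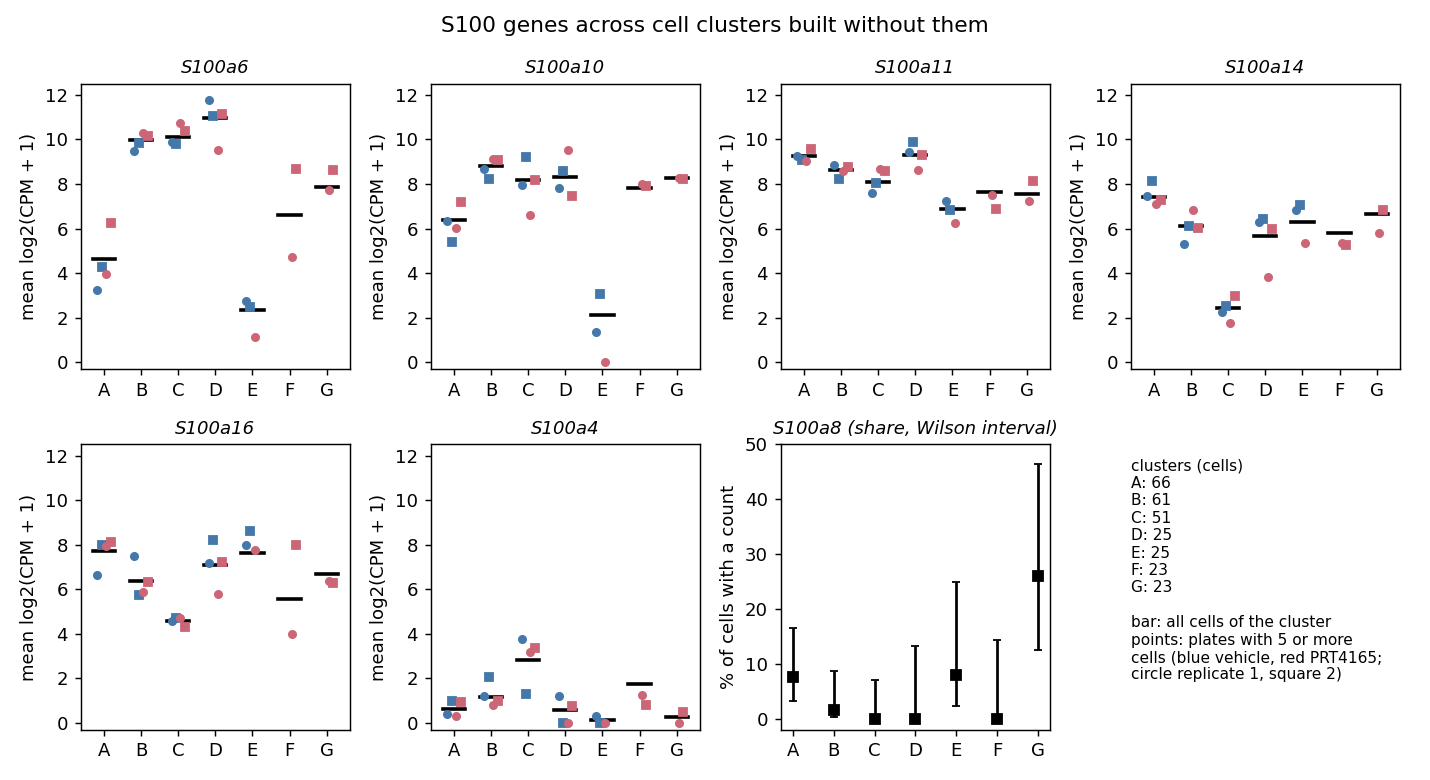
Mean log2(CPM + 1) of 6 S100 genes in clusters A to G, with a bar for all cells of the cluster and points for plates with at least 5 cells (blue vehicle, red PRT4165, circles replicate 1, squares replicate 2). The S100a8 panel gives the percent of cells with a count and its Wilson interval, with the plates pooled. S100a6 and S100a10 are lowest in E, S100a14 and S100a16 are lowest in C, and the S100a8 share is highest in G.

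S100a8 was counted in 6 of 23 cells of the sebaceous gland-like cluster G, or 26.1% (Wilson interval 12.55 to 46.5%), and in 8 of the other 251 cells, or 3.19% (1.62 to 6.16%). By plate, these were 1 of 2 and 2 of 3 cells of G in vehicle and 1 of 6 and 2 of 12 with PRT4165. Outside G they were 1 of 68 and 2 of 52 cells in vehicle and 0 of 66 and 5 of 65 with PRT4165. The 2 intervals pool the plates and treat cells as independent, so they do not cover the spread between plates. After thinning, the share in G was 21.7%. The cells with S100a8 were deeper, with a median of 667657 counts against 414249 over all kept cells, and the part of depth in these shares was not tested further. Cluster A had 5 of 66 cells with S100a8, and C, D and F had 0 of 51, 0 of 25 and 0 of 23. These allow shares of up to 5.88%, 12% and 13.04% (3 divided by the number of cells, with the plates pooled). Cluster E made up 14.3% and 10.9% of the vehicle cells and 6.94% and 5.19% of the PRT4165 cells, and cluster G 2.86% and 5.45% against 8.33% and 15.6%. Cluster C, where S100a14 and S100a16 were lowest, made up 24.3% and 27.3% against 9.72% and 15.6%. The plates of the treatments did not overlap for 6 of the 7 clusters, B being the exception, each at the smallest exact p the plates allow, 0.333.

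The genes that followed each member across the cells of a plate were described as well. They rest on the same cells and values as the cluster levels, so they are no separate test of that pattern. The measure of likeness was Spearman's rho within each plate, averaged over the 4 plates, for 9254 genes counted in at least 10% of cells, and it is given as a description, since the cells of a plate share library preparation and sequencing. S100a6 was followed most closely by Krt5 (0.71), Krt15 (0.63), Ftl1 (0.60), Col17a1 (0.59) and Ifitm2 (0.55), which include a basal keratin, a keratin of bulge and basal cells and a hemidesmosomal collagen. Over the 4 plates, rho with Krt5 ran from 0.65 to 0.82. The 95th percentile of all genes for S100a6 was 0.18. Its rho was -0.47 with Krt10 and -0.53 with Sprr1a.

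S100a10 was closest to Ifitm3 (0.51), Fth1 (0.50), Ifitm2 (0.48), Krt5 (0.46) and Postn (0.44), and its rho with S100a6 was 0.45. With Anxa2, its partner in the membrane complex, the rho was 0.19. S100a11 was closest to Lgals3 (0.55), Anxa2 (0.51), Cst3 (0.49), Lgals7 (0.49) and Sfn (0.48), genes of galectins, an annexin, cystatin C and stratifin. Its rho with Anxa1 was 0.30, with Krt5 0.22, with S100a6 0.28 and with S100a14 0.26. S100a14 and S100a16 followed each other (0.35) and Ly6d (0.48 and 0.38), a surface protein of committed keratinocytes, and S100a14 was at -0.15 with both S100a6 and S100a10. S100a4 was at 0.33 with S100a6 and at 0.32 with Cd34, a bulge stem cell marker.

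S100a8, counted in 14 cells, had weaker relations. Its closest genes were Tmem45b (0.39), Gsta3 (0.37), Adtrp (0.35), Clmp (0.34) and Epb41l2 (0.33), of which Gsta3 and Adtrp are also among the 10 leading genes of cluster G. Over the plates, rho with Adtrp ran from 0.04 to 0.63. Only Gsta3 and Clmp stayed among the 5 closest after thinning, so this list is not stable. Its rho with Lcn2 was 0.29, with Scd1 0.21 and with Krt6a -0.05, and with the constitutive members it lay between -0.13 and 0.14.

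**Figure D5:**
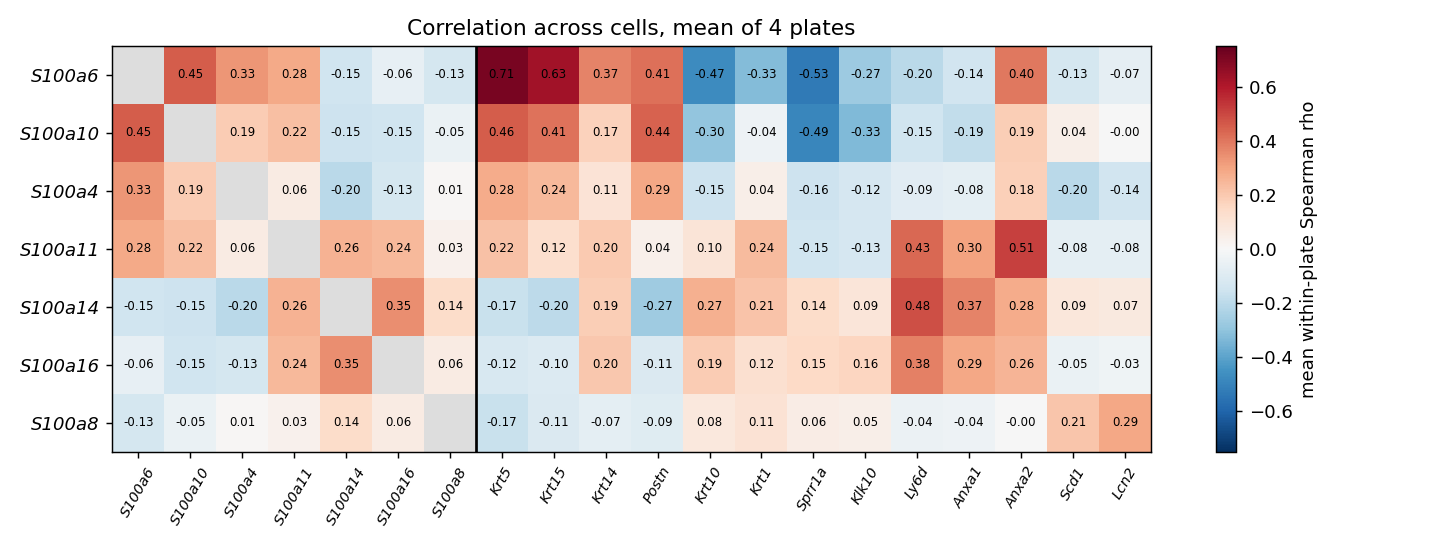
Mean within-plate Spearman rho over 4 plates between 7 S100 genes (rows) and, left of the line, each other, and right of it, reference genes (columns). Red is positive and blue negative. S100a6 and S100a10 are red with Krt5, Krt15 and Postn and blue with Krt10 and Sprr1a, and S100a11, S100a14 and S100a16 are red with Ly6d, Anxa1 and Anxa2.

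The rest of the pathway was given by lists of related genes, and none of their members had an adjusted p under 0.05 in edgeR. DESeq2 called 1.37% of all the genes it adjusted. Of the 10 other S100 genes listed, 7 had a row in the table and 6 were tested. At an unadjusted edgeR p under 0.05, which 4.93% of all genes tested had, 0 were higher and 1 lower (median log2 fold change -0.04). That gene was S100a2, at 22.6 and 5.13 CPM in vehicle and 0.70 and 0.22 CPM with PRT4165, a log2 fold change of -4.99 ± 1.32 with an adjusted p of 0.862 by edgeR and 0.00144 by DESeq2. On each plate 1 cell held 66.7% to 92.6% of its counts. The annotated span of S100a3 contains S100a2, so reads could be split between them.

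Of the 22 partners and receptors of S100 proteins, 21 had a row and 20 were tested. At an unadjusted edgeR p under 0.05 (4.93% of all genes tested), 0 were higher and 2 lower (median -0.15). The lower ones were Plat, the tissue plasminogen activator whose product binds S100a10 (log2 fold change -6.08), and Cd68 (-5.18), a scavenger receptor of macrophages. DESeq2 called both, while the edgeR adjusted p was 0.862 for Plat and 0.888 for Cd68. Cd68 was counted in 11 of the 274 cells. As scaled for the edgeR test, it had 1.90 and 4.78 CPM in vehicle and 0.10 and 0.08 CPM with PRT4165. Plat had 5.67 and 14.6 CPM in vehicle, where 1 cell held 80.8% and 98.4% of the counts, and 0.13 and 0.14 CPM with PRT4165. Anxa2 had a log2 fold change of -0.27 ± 0.42, and Tlr4, a receptor of calprotectin, of -1.40 ± 2.25. Cacybp gave 0.41 ± 0.51.

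Of the 7 fused-type S100 genes, large structural proteins of the cornified layer that begin with an S100 domain, 5 had a row and were tested, and 0 were higher or lower at an unadjusted p under 0.05. Their median log2 fold change was -0.38, and Flg, filaggrin, had 0.06 ± 1.58. Of the 22 wound and barrier reference genes, 21 were tested. At an unadjusted edgeR p under 0.05 (4.93% of all genes tested), 2 were higher and 2 lower (median -0.13). Krt6a and Krt17, keratins of wounded and follicular epithelium, had log2 fold changes of -1.50 ± 0.51 and -1.28 ± 0.46, and Stfa3 and Stfa1, cysteine protease inhibitors, of 3.997 ± 0.64 and 1.52 ± 0.66. Of these 4 genes DESeq2 called Stfa3, with an adjusted p of 5.2e-05, and edgeR's adjusted p for it was 0.862. For Krt16, Sprr1a and Lcn2 the values were -0.93 ± 0.95, -0.45 ± 0.76 and 0.81 ± 1.02.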

How the data were processed

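Full-length cDNA of single sorted cells was sequenced by a modified Smart-seq2 protocol without molecular identifiers. The Wilson intervals of shares cover the sampling of cells only, not the spread between plates. The authors deposited 1 table of estimated counts per gene and cell (Salmon 0.13.1, mm10/GRCm38), not scaled, in which 18.3% of the values above 0 are not whole. All 289 columns were matched by title, and 0 were left unmatched. No unit other than these deposited estimated counts was used. No pair of cells had identical values.

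Cells with at least 1000 genes and at most 50% mitochondrial counts were kept. Counts were summed per plate, rounded, filtered with filterByExpr, scaled by TMM and tested with edgeR 4.0.16 (R 4.3.3), with Benjamini-Hochberg adjustment. The standard error is the log2 fold change divided by the square root of F. The fit was tested on simulated counts. P-values measure the spread between plates, which may be technical. The labels call the replicate number a batch, so plates were also paired by it; deviations of same-numbered plates had a correlation of 0.0206. DESeq2 1.42.0 and limma 3.58.1 were alternatives. Shares were compared by exact permutation over plates. Cells were clustered with leidenalg 0.10.2 on 2000 variable genes without S100 members, over 15 components and 15 neighbours at resolution 1, and a cluster was named by at least 3 fixed markers raised over 1 on the log2 scale. D and E met this for more than a single list and were left unnamed, while F, which also did, was named by its cycling markers. Doublets were not called, the cells having been sorted singly into wells. Per-length levels used 14664 of 15019 genes. The text names all 8 members, the 5 genes most like S100a8, S100a6, S100a10 and S100a11 across cells, and genes of written lists. Members and lists were chosen with earlier results of these data known.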

Additional observations from a re-analysis of the deposited data

How the results depend on the processing

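The calls and fold changes were recomputed with another tool, normalization, gene filter, cell filter or cell weighting, without the deepest cell of each plate, with the replicate block and without each plate. Shares of cells with a count were recomputed with another detection minimum, thinning, other cell filters and without each plate, and the likeness lists after thinning. The order of levels, the clusters and the kinds of S100a8 cells were not recomputed. DESeq2 called 1.37% of genes and 1 S100 member, S100a8, where the edgeR and limma fits called 0. Without each plate in turn, the percent of genes called ranged from 0 to 0 and the members called from 0 to 0. The log2 fold change of S100a8 kept its sign in all 14 alternatives, from -6.84 without PRT4165 replicate 2 and -6.21 under the stricter cell filter to -1.69 without its cell of most counts on each plate. S100a10 and S100a14 kept their signs as well, at 0.16 to 0.54 and -0.57 to -0.11. S100a4 turned to -0.36 with all deposited cells, -1.28 with the stricter filter and -1.06 with cells weighted equally, and ranged from -0.43 to 0.90 without each plate. S100a11 turned to -0.020 with cells weighted equally and ranged from -0.31 to 0.59 without each plate, S100a6 from -0.52 to 0.11 and S100a16 from -0.73 to 0.11. The difference in the share of cells turned to -1.80 percentage points for S100a8 after thinning and to -1.59, -0.65 and -0.80 for S100a8, S100a14 and S100a16 with the stricter filter. Without each plate it ranged from -3.68 to 4.03 for S100a8 and from -8.02 to 1.56 for S100a4. Pairing plates by the replicate block changed no call in edgeR. For the shares, pairing gives the plain difference of means by construction, so it was no check of them. Of the 5 genes most like S100a8, 2 stayed among the 5 after thinning. The cause of these shifts was not tested. With 2 plates a group, a biological coefficient of variation of 76.9% limits what the test can call.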
